A study of Mus musculus with 15 samples.

Results

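The potassium channel gene family was described here in mouse cortex after theta-burst magnetic stimulation. Members were the genes of the raw count table whose symbol is Kcn followed by letters and a number, with at least 1500 counts summed over the 15 libraries, without Kcnj10 and Kcne2. Of 56748 genes in the table, 92 had such a symbol and 67 were members. All 67 passed the expression filter, which kept 22998 genes. Their summed counts ran from 1540 for Kcnh6 to 294092, and together they held 0.755% of all counts. The rule uses total counts and symbols and no difference between groups.

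RNA came from the cortex of wild-type C57BL/6J mice that received 1 session of repetitive transcranial magnetic stimulation and were sampled 3 h later. The sham group (5 animals) had sham stimulation, the iTBS group (5 animals) intermittent theta-burst stimulation and the cTBS group (5 animals) continuous theta-burst stimulation. No transgene, Cre line or drug is named in the labels, and an age of the animals is not used here. The sample titles give somatosensory cortex and the series text gives sensorimotor cortex. Each library is 1 animal's bulk tissue, so it mixes all cell types of the dissected piece.

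Potassium channels let potassium leave the cell and so set the resting potential, end the action potential and limit repetitive firing. Voltage-gated (Kv) channels open on depolarization, inward rectifiers (Kir) hold the resting potential, two-pore-domain (K2P) channels carry leak current, and calcium-activated BK and SK channels link calcium entry to repolarization. Kv channels are built from pore-forming alpha subunits, silent subunits that act only together with others, and auxiliary proteins such as the Kv beta subunits and the KChIP proteins. In cortex, different neurons carry different sets, for example Kv3 channels in fast-spiking interneurons and Kv7 channels, the source of the M current, in pyramidal cells.

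The libraries held 15385070 to 47807723 counts. All 13 cortical glutamatergic markers listed were measured, and their summed level ran from 2208 to 3536 CPM (counts scaled to the size of the library) in sham, 2558 to 3220 in iTBS and 2667 to 3185 in cTBS. All 15 markers of striatal projection neurons were measured as well, at 634 to 1738 CPM in sham, 879 to 2159 in iTBS and 836 to 2056 in cTBS. Whether these transcripts came from striatum or from the cortex itself was not tested. The summed level of 12 nuclear-retained noncoding RNAs ran from 4301 to 16977 CPM in sham, 6468 to 16389 in iTBS and 3164 to 7972 in cTBS. The choroid plexus list stood highest in sham 2, sham 5 and cTBS 4, at up to 289.7 CPM, against 6.64 CPM in the lowest library. No gene of the cortical, striatal or nuclear list was at 0 in any library. Of the other 8 lists of cell type markers (cortical interneurons, oligodendrocytes and their precursors, astrocytes, microglia, endothelial and mural cells, meningeal fibroblasts, and thalamic neurons), no gene was called by edgeR in any of the 3 comparisons. At an unadjusted p under 0.05, cTBS against sham had 4 of 8 microglial, 3 of 10 oligodendrocyte, 3 of 10 interneuron and 3 of 7 meningeal markers higher, with 24.4% of all tested genes past that p. In iTBS against sham, 3 of 7 meningeal markers were higher and 3 of 10 thalamic markers lower, with 1.93% of all tested genes past it. In iTBS against cTBS, 6 of 10 oligodendrocyte, 4 of 8 microglial, 3 of 8 astrocyte and 3 of 10 interneuron markers were lower, with 30.6% of all tested genes past it. In each comparison, those of the 8 lists not named for it had at most 2 genes past it in either direction. Their part in the results below was not tested.

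The start of the promoter is shown for 3 members on which the results below turn: Kcnj4, which leads both comparisons with cTBS, Kcnj2, which leads iTBS against sham, and Kcna5, whose level varied most between libraries. Each line gives the 250 bases before the transcription start, 5′ to 3′ on the gene's strand, from the RefSeq promoter table of build GRCm38.p6, which is not the build of the counts. Capitals mark GC boxes, the letters GGGCGG on either strand.
Kcnj4, chr15:79505242-79505491, minus strand: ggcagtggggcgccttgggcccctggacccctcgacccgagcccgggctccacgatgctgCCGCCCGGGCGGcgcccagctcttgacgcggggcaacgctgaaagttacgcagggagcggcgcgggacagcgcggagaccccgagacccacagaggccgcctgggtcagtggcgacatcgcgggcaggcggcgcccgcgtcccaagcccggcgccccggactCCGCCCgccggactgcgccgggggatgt
Kcnj2, chr11:111065914-111066163, plus strand: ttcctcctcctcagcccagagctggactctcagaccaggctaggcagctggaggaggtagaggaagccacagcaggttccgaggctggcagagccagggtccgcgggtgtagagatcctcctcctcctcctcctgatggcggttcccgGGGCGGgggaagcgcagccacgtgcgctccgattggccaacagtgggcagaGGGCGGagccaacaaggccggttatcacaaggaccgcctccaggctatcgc
Kcna5, chr6:126535556-126535805, minus strand: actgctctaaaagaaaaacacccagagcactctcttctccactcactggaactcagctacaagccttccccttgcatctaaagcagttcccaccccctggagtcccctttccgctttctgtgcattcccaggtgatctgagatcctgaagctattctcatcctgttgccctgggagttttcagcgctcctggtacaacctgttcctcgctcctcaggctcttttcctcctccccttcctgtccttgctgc
The Kcnj4 window held 3 GC boxes, the Kcnj2 window 2 and the Kcna5 window none. The table had windows for 47 of the 67 members, 70 windows in all, because some genes have several starts. A GC box was present in 45.7% of these windows and in 32.7% of all 32851 windows of the table. The letters TATAAA were found in 2.86% of the members' windows and 12.4% of all windows. The cyclic AMP response element TGACGTCA was in 0 of the 70 windows and in 1.55% of all. These are matches of letters on both strands, with the 3 motifs searched separately.

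Levels of different genes were compared per length, as counts divided by the exonic length and scaled to a common total over the tested genes (TPM). In sham the median member stood at 39.5 TPM and the median of all tested genes at 9.10 TPM. Only members had to hold at least 1500 counts, so the rule itself favours a higher median among them. Of the 67 members, 18 were above 100 TPM and 11 below 10 TPM. The auxiliary subunit Kcnab2 had the highest level, 316 ± 23.9 TPM (SD, n = 5), and Kcnh6 the lowest, 3.65 ± 0.847 TPM. The order between neighbours was not resolved, since the sham ranges of 65 of the 66 neighbouring pairs overlapped. With the length of the longest coding transcript in place of all exons, 9 of the 10 highest members stayed among the 10 highest, Kcnab2 stayed first, and the largest shift was that of Kcnd3, from rank 35 to rank 15. The member with the highest level changed in 5 of the 14 subfamilies, to Kcnk2 among the K2P genes, Kcnd3 among the Kv4 genes, Kcnn3 among the SK genes, Kcnh3 among the EAG, ERG and ELK genes, and Kcnv1 among the silent subunits. Sums and leading members below are with all exons.

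Among the voltage-gated alpha subunits, the Kv1 genes summed to 460.1 ± 26.9 TPM in sham, led by Kcna1 at 179 ± 15.9 TPM, the axonal Kv1 subunit mutated in episodic ataxia. The Kv3 genes summed to 369.7 ± 42.6 TPM, with its members between 83.1 TPM for Kcnc4 and 105 ± 12.3 TPM for Kcnc1. The Kv7 genes summed to 338 ± 21.9 TPM. The A-type Kv4 genes summed to 156 ± 15.5 TPM, led by Kcnd2, the dendritic A-type subunit, at 109 ± 13.8 TPM. The EAG, ERG and ELK genes summed to 442 ± 34.5 TPM, led by Kcnh7, an ERG channel of neurons, at 107 ± 7.82 TPM.

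Subunits that modify Kv channels reached sums in the range of those of the alpha subfamilies. The 3 Kv beta genes summed to 429.5 ± 26.4 TPM, the 4 KChIP genes, calcium sensors that bind Kv4 channels, to 331 ± 17.5 TPM with Kcnip3 highest at 139 ± 18.1 TPM, and the 9 silent subunits to 356 ± 38.3 TPM. Kcnf1 led the silent subunits at 118 ± 15.1 TPM. The lowest silent subunit, Kcng2, was at 4.09 ± 0.910 TPM.

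The inward rectifiers summed to 639 ± 32.3 TPM in sham, the highest sum of any subfamily with all exons. With the longest coding transcript they summed to 608 TPM and the Kv beta genes to 1126 TPM, so the order of these sums depended on the length used. Kcnj4, a strong inward rectifier of forebrain neurons, was highest among them at 216 ± 17.3 TPM, and Kcnj12, of the same strong-rectifier group, was lowest at 17.1 ± 2.48 TPM. The 9 K2P leak channel genes summed to 268 ± 20.9 TPM, led by Kcnk1 at 107 ± 11.3 TPM. Among the calcium-activated channels, the BK pore gene Kcnma1 stood at 131 ± 6.38 TPM, and its auxiliary subunit gene Kcnmb4 at 4.53 ± 0.518 TPM. Of the 3 SK genes, Kcnn2 stood at 14.9 ± 1.71 TPM and Kcnn3 at 11.3 ± 2.09 TPM, or at 25.4 and 34.6 TPM with the longest coding transcript. The sodium-activated Kcnt2 and Kcnt1 stood at 60.2 ± 3.04 and 56.4 ± 10.02 TPM.

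**Figure D1:**
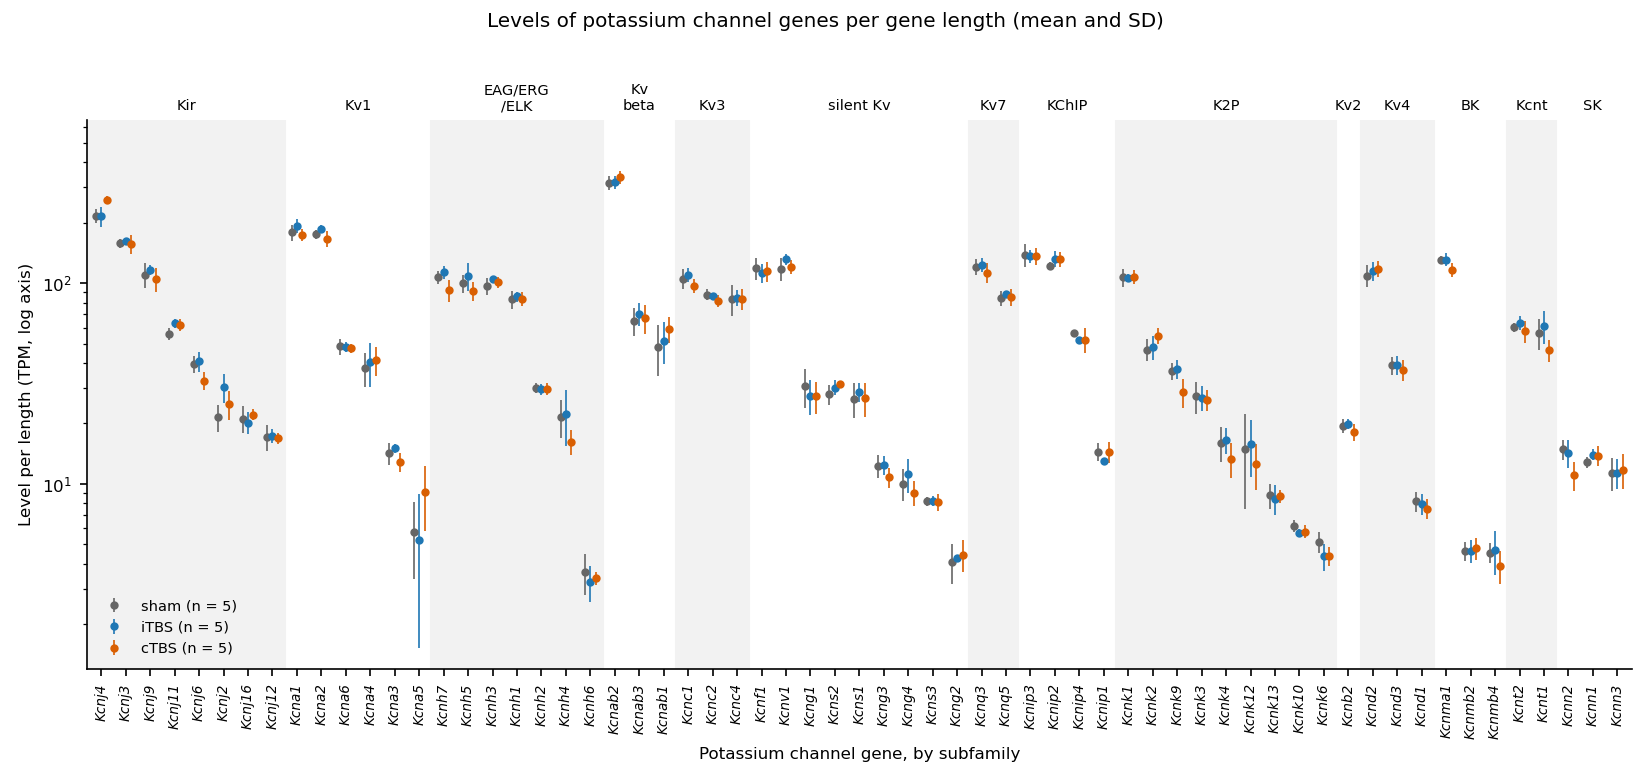
Level per length (TPM, log axis) of 63 of the 67 potassium channel genes, ordered by subfamily and by level in sham. Points are means and bars SDs of 5 libraries in sham, iTBS and cTBS. Kcnab2 is highest at 316 TPM in sham and Kcnh6 lowest at 3.65 TPM, and the 3 groups lie close together for most genes.

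Members differed widely in how steady they were between animals. The SD of log2 CPM within groups had a median of 0.157 over the members. Over the 16883 tested genes with a mean of at least 1 CPM the median was 0.158. These 2 medians are not like for like. A small constant was added to CPM before the log for the tested genes only, and those genes are not matched to the members in level. Among members the SD was highest for Kcna5, a Kv1 subunit, at 0.73, for Kcnk12, a K2P subunit of the THIK group, at 0.60 and for Kcnab1, a Kv beta subunit, at 0.32. Kcna5 ran from 1.45 CPM in iTBS 3 to 10.2 CPM in cTBS 2, a 7.0-fold range over the 15 libraries. Kcnk12 ran from 2.94 CPM in sham 2 to 11.9 CPM in sham 5, a 4.05-fold range within 1 group.

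After iTBS the inward rectifier gene Kcnj2 had the smallest p-value of the family against sham. Kcnj2 (ENSMUSG00000041695) encodes a strong inward rectifier that holds the resting potential near the potassium equilibrium. It was at 31.0, 35.5, 25.7, 29.4 and 24.5 CPM in sham 1 to 5 and at 47.9, 49.0, 36.8, 34.7 and 35.9 CPM in iTBS 1 to 5. Among the sham and iTBS libraries the 4 lowest were sham libraries, and sham 2 lay inside the iTBS range. The difference, iTBS minus sham, was 0.48 ± 0.14 log2 units (± SE), with unadjusted p = 0.00346 and adjusted p = 1.00. Its cTBS mean stood between, with libraries at 45.3, 38.4, 26.0, 34.4 and 33.8 CPM and a difference of 0.28 ± 0.14 log2 units from sham.

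No member was called in iTBS against sham by edgeR's quasi-likelihood test with Benjamini-Hochberg adjustment, nor was any of the 22998 genes (0.00%). At an unadjusted p under 0.05 there were 3 members (4.48%), against 1.93% of all tested genes, and DESeq2, limma-voom and limma-trend called 0 members as well. Beside Kcnj2 these were Kcnj11, the pore subunit of ATP-sensitive potassium channels, and Kcnk6, a K2P gene. Kcnj11 was at 57.4 ± 3.49 CPM after iTBS and 51.6 ± 5.08 CPM in sham (SD, n = 5), a difference of 0.15 ± 0.07 log2 units. Kcnk6 was at 4.47 ± 0.575 and 5.36 ± 0.656 CPM, a difference of −0.26 ± 0.12 log2 units. Of the members that came next by p-value, 6 had sizes of at most 0.17 log2 units, with lower means in iTBS for Kcnk10, a mechano-gated K2P gene (−0.13 ± 0.07), Kcnip1 (−0.17 ± 0.09) and Kcnip4 (−0.12 ± 0.07), and higher means for Kcnip2 (0.10 ± 0.06) and the silent subunits Kcnv1 (0.14 ± 0.10) and Kcns2 (0.10 ± 0.08).

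The groups overlapped for every member in iTBS against sham, and 0.452% of all tested genes had groups that did not overlap. Of the 67 members, 41 had a fold change above 0 and 26 below. Their median was 0.026 log2 units, beside −0.0010 over all tested genes. The median standard error of a member was 0.097 log2 units, and sizes ran from −0.26 for Kcnk6 to 0.48 for Kcnj2.

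Against sham, cTBS showed its smallest p-value for Kcnj4 (ENSMUSG00000044216). Kcnj4 was at 113, 114, 102, 130.4 and 125 CPM in sham 1 to 5 and at 150.4, 152, 142, 143 and 139 CPM in cTBS 1 to 5. Every cTBS library was above every sham library. The difference, cTBS minus sham, was 0.32 ± 0.08 log2 units, with unadjusted p = 0.00140 and adjusted p = 0.144, the smallest adjusted p of the comparison which 5 other members shared.

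Kcnn2 (ENSMUSG00000054477), an SK channel of the afterhyperpolarization, had lower levels in cTBS. It was at 27.6, 25.1, 30.4, 25.4 and 30.5 CPM in sham 1 to 5 and 19.8, 18.5, 24.5, 19.5 and 24.7 CPM in cTBS 1 to 5, and the highest cTBS library was just under the lowest sham library. The difference was −0.38 ± 0.10 log2 units (adjusted p = 0.144). Kcnj4 and Kcnn2 were the 2 members (2.99%) whose groups did not overlap, against 1.34% of all tested genes, of which 0.626% were higher and 0.713% lower in cTBS.

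Kcnk9 (ENSMUSG00000036760), an acid-sensitive leak channel, was at 119, 107, 123, 102 and 109.8 CPM in sham and 75.1, 106, 91.5, 88.2 and 94.1 CPM in cTBS. Only cTBS 2 reached into the sham range. The difference was −0.30 ± 0.08 log2 units (adjusted p = 0.144). Kcnk2, a mechano-gated leak channel, stood the other way, at 70.2 ± 6.55 CPM in cTBS and 57.7 ± 7.01 CPM in sham, 0.28 ± 0.09 log2 units apart.

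In all, 9 members (13.4%) had an unadjusted p under 0.05 in cTBS against sham, against 24.4% of all tested genes. Of these, 5 (7.46%) had higher means, against 6.80% of all tested genes, and 4 (5.97%) lower means, against 17.6%. None passed adjustment in edgeR, as none of all 22998 genes did (0.00%). The others among the 9 were Kcnj11 (59.3 ± 3.00 CPM in cTBS, 0.20 ± 0.07 log2 units), Kcns2 (0.23 ± 0.08), Kcnip2 (0.16 ± 0.06), the G protein-gated rectifier Kcnj6 (−0.22 ± 0.08) and the ELK channel Kcnh4 (−0.35 ± 0.16). Kcnh7 came next (−0.17 ± 0.08, unadjusted p = 0.0583). The members divided nearly evenly, 34 above 0 and 33 below, with a median of 0.0090 log2 units beside −0.023 over all tested genes.

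These counts depended on the tool and on 1 sham library. DESeq2 called 1 member (Kcnj4, adjusted p = 0.0495), quality-weighted limma-voom 10 and limma-trend 0, and without sham 4 edgeR called 9, with Kcnj11, Kcnj4 and Kcnip2 at the smallest adjusted p. Over all tested genes, DESeq2 called 132 of 22998, limma-voom 5461 and limma-trend 0, and edgeR called 5726 of 23508 without sham 4. Over the 28 alternatives the adjusted p of Kcnj4 ran from 0.0170 to 0.859.

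The nuclear-retained RNA list stood lower in cTBS than in sham: 10 of its 12 genes had an unadjusted p under 0.05, all lower, with a median of −0.87 log2 units. Of all tested genes, 17.6% were lower at that p. The level of the list, its mean log2 CPM, was 6.26 to 7.37 in cTBS and 6.67 to 8.18 in sham, with sham 4 at the bottom of the sham range and the other sham libraries at 7.56 or more. With this level in the model, the difference of Kcnj4 was 0.20 ± 0.08 log2 units, that of Kcnk9 −0.16 ± 0.07, that of Kcnn2 −0.26 ± 0.11 and that of Kcnk2 0.25 ± 0.11. Kcnh4 had −0.043 ± 0.14 and Kcnj11 0.10 ± 0.06 log2 units in that model. Kcnh7 had −0.28 ± 0.08 and Kcnj6 −0.26 ± 0.09 in it, larger in size than without the nuclear RNA level. With the striatal marker level added to that model, Kcnj4 had 0.13 ± 0.08, Kcnn2 −0.11 ± 0.09 and Kcnk2 0.044 ± 0.07 log2 units. Kcnh7 had −0.19 ± 0.08 and Kcnj6 −0.15 ± 0.08 there. Kcnh4 and Kcnj11 were farther from 0 than with the nuclear RNA level alone, at −0.24 ± 0.13 and 0.15 ± 0.07 log2 units. No member passed adjustment in either model, and the smallest adjusted p values of a member were 0.837 and 0.852. With the nuclear RNA level alone, 2 members had higher and 12 lower means at an unadjusted edgeR p under 0.05, with 1315 of 22998 tested genes past it. With both levels, 4 were higher and 7 lower, with 1230 of all tested genes past it. Both lists differed between the groups, so their part cannot be told apart from that of stimulation.

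**Figure D2:**
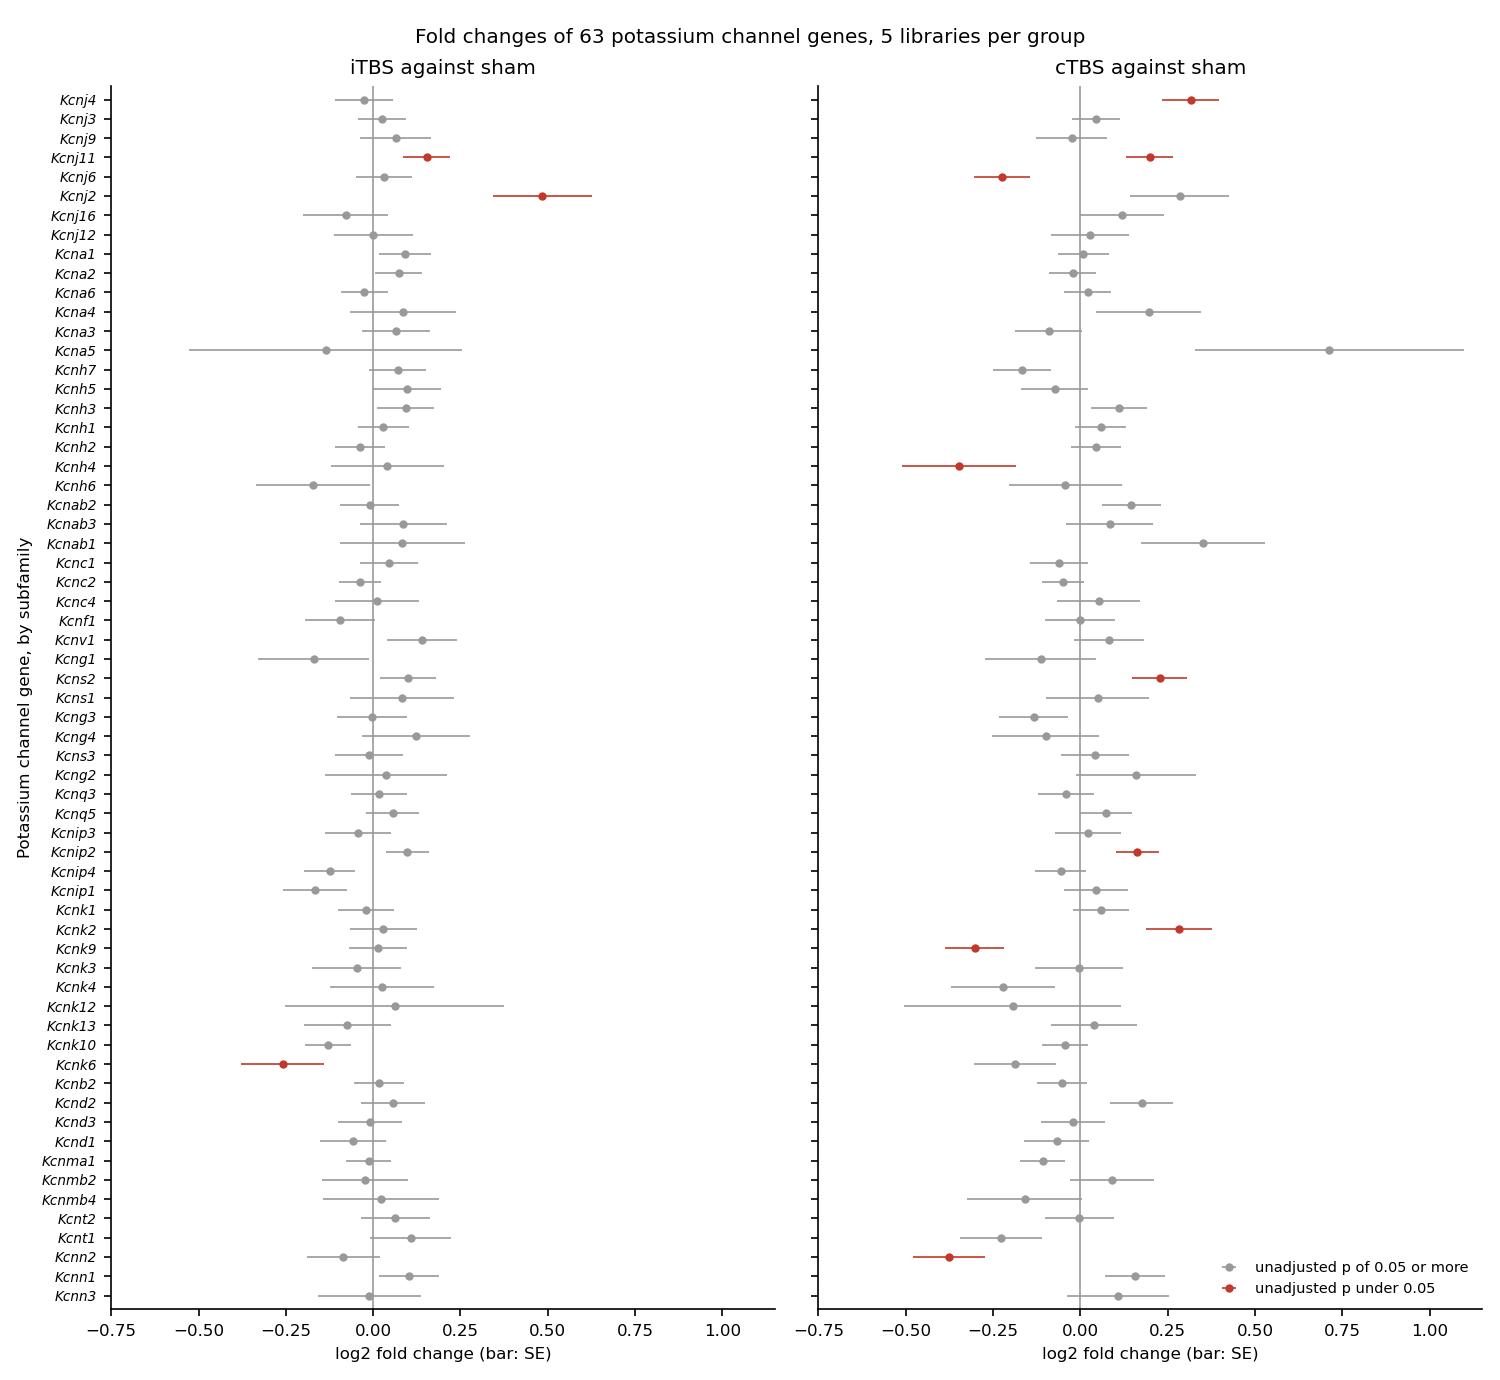
Log2 fold change of 63 of the 67 potassium channel genes in iTBS against sham (left) and cTBS against sham (right), from the edgeR model of all 15 libraries. Bars are SEs and red points have an unadjusted p under 0.05, 3 genes on the left and 9 on the right. None passed adjustment, and the 2 panels share the sham libraries.

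The 2 stimulation patterns were then compared directly. Kcnj4 was at 123, 121, 102, 97.1 and 129.9 CPM in iTBS 1 to 5, below all 5 cTBS libraries, and its difference, iTBS minus cTBS, was −0.34 ± 0.08 log2 units (unadjusted p = 0.000710, adjusted p = 0.0838). It was the only member (1.49%) whose groups did not overlap, against 3.92% of all tested genes, of which 2.22% were higher and 1.70% lower in iTBS. The comparison with sham uses the same cTBS libraries, so the 2 results for Kcnj4 are not independent.

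Kcnk9 was at 102, 123, 108, 123 and 111 CPM in iTBS 1 to 5, higher than in cTBS except for the overlap of iTBS 1 with cTBS 2. The difference was 0.32 ± 0.08 log2 units (adjusted p = 0.0838). Kcnj6, which forms G protein-gated channels opened by inhibitory transmitters, was at 73.1, 65.8, 84.5, 83.1 and 79.8 CPM in iTBS and 62.0, 58.5, 64.3, 71.4 and 67.3 CPM in cTBS, and its lowest iTBS library lay inside the cTBS range. The difference was 0.26 ± 0.08 log2 units (adjusted p = 0.0839).

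Of the 67 members, 10 (14.9%) had an unadjusted p under 0.05 in iTBS against cTBS, against 30.6% of all tested genes. In 6 (8.96%, against 20.0% of all) the iTBS mean was higher, which beside Kcnk9 and Kcnj6 were Kcnh7 (0.24 ± 0.08 log2 units), Kcnt1 (0.33 ± 0.12), Kcnn2 (0.29 ± 0.10) and Kcnh4 (0.39 ± 0.16). In 4 (5.97%, against 10.6% of all) it was lower, which beside Kcnj4 were Kcnk2 (−0.25 ± 0.09 log2 units), Kcnip1 (−0.21 ± 0.09) and Kcna5 (−0.85 ± 0.39). The edgeR test called none of them after adjustment, as none of all tested genes (0.00%). The median of the members was −0.017 log2 units beside 0.027 over all tested genes.

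DESeq2 called 2 members in this comparison (Kcnj4 and Kcnk9), limma-voom 11 and limma-trend 0, and edgeR called 5 without iTBS 1, 4 without cTBS 5 and 2 without sham 4. Over all tested genes, DESeq2 called 2618 of 22998, limma-voom 6853 and limma-trend 0. The edgeR test called 4474 of 23481 without iTBS 1, 3380 of 23449 without cTBS 5 and 3637 of 23508 without sham 4. Over 28 alternatives the adjusted p of Kcnj4 ran from 0.0145 to 0.773 and that of Kcnk9 from 0.0150 to 0.781.

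Here too the nuclear-retained RNA list differed, with 9 of 12 genes higher in iTBS at an unadjusted p under 0.05 (20.0% of all tested genes) and a median of 0.96 log2 units. With its level in the model, Kcnt1 had a difference of 0.045 ± 0.08 log2 units, Kcnh4 0.053 ± 0.15 and Kcnip1 −0.055 ± 0.09, all within 1 SE of 0. Kcnh7 had 0.36 ± 0.08, Kcnj6 0.30 ± 0.09 and Kcna5 −0.996 ± 0.44 in that model, at least as large in size as without it. Kcnj4 had −0.21 ± 0.08, Kcnk9 0.16 ± 0.07, Kcnn2 0.16 ± 0.11 and Kcnk2 −0.21 ± 0.11, all smaller in size than without it. The median member moved from −0.017 to 0.099 log2 units. With the nuclear RNA level in the model, 16 members had higher and 2 lower iTBS means at an unadjusted edgeR p under 0.05. Of all 22998 tested genes, 1743 were past it. With the striatal level added as well, Kcnh4 had 0.17 ± 0.12 log2 units, Kcnj4 −0.17 ± 0.08, Kcnk9 0.15 ± 0.08 and Kcnn2 0.059 ± 0.09. As the nuclear list itself differed between the groups, its part cannot be told apart from that of stimulation.

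**Figure D3:**
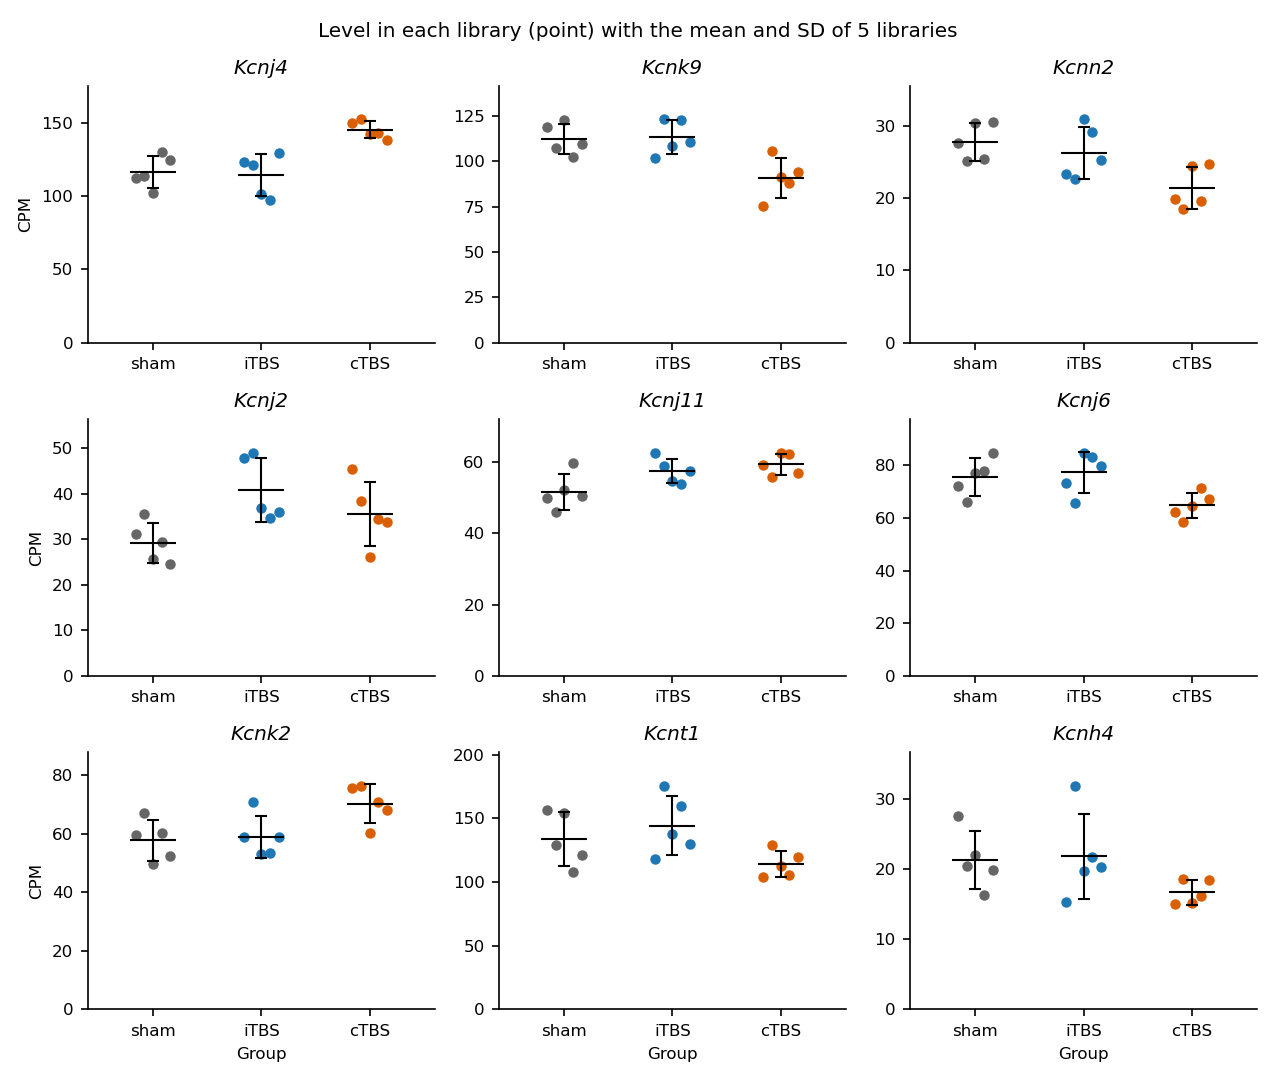
Level in CPM of 9 potassium channel genes in each library (points), with the mean and SD of 5 libraries per group (black). All 5 cTBS libraries of Kcnj4 lie above the sham and iTBS libraries, and for Kcnn2 they lie below the sham libraries. The groups of the other 7 genes overlap.

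By subfamily, levels per length were summed in each group. TPM does not use the library scaling applied to CPM, so differences between groups can differ between the 2 measures. Kcna1, for example, had means of 215 CPM in sham and 216 CPM in cTBS, but 179 and 174 TPM. The Kir genes summed to 639 ± 32.3 TPM in sham, 666 ± 23.1 in iTBS and 679.6 ± 42.7 in cTBS (SD, n = 5). The BK genes stood at 139.8 ± 6.24, 140.3 ± 9.94 and 125 ± 10.5 TPM, and the sodium-activated Kcnt genes at 117 ± 11.2, 125 ± 11.8 and 104 ± 4.70 TPM. The Kv beta genes were at 429.5 ± 26.4, 439.9 ± 22.2 and 463 ± 28.7 TPM, and the EAG, ERG and ELK genes at 442 ± 34.5, 468 ± 29.9 and 417 ± 29.4 TPM. These sums were not tested.

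Several subfamilies held members with means in both directions. Among the Kir genes in cTBS against sham, Kcnj4 and Kcnj11 had higher means and Kcnj6 a lower mean, and the 8 genes had a median of 0.08 log2 units. Among the K2P genes, Kcnk2 was higher and Kcnk9 lower. Among the SK genes, Kcnn2 was at −0.38 ± 0.10 log2 units from sham, while Kcnn1 and Kcnn3 stood at 0.16 ± 0.09 and 0.11 ± 0.15.

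Because the libraries differed in their content of nuclear RNA, the slope of each member on the nuclear RNA level was fitted within the groups, as log2 change per log2 unit of that level. In bulk tissue, a slope of this kind cannot separate fewer cells of a type from less RNA per cell. The slope passed adjustment for 25 of the 67 members (37.3%), against 45.0% of all tested genes. The direction differed from that of the background: 3 members (4.48%) rose and 22 (32.8%) fell, while 28.6% of all tested genes rose and 16.4% fell. Members had to hold at least 1500 counts, so this background is not matched to them in level. Other lists also fell without rising: 8 of 13 glutamatergic, 5 of 8 astrocyte and 6 of 8 microglial markers. Of 10 interneuron markers 5 fell and 1 rose, and of 10 oligodendrocyte markers 0 passed. The median slope was −0.13 over the members and 0.026 over all tested genes, and 56 of the 67 slopes were below 0.

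The 3 members that rose with the nuclear RNA level were Kcnh4 (0.40 ± 0.11), Kcnt1 (0.35 ± 0.06, adjusted p = 8.75e-05) and Kcnk9 (0.20 ± 0.05). Kcnt1, a sodium-activated channel, had the smallest p-value of the family. In sham it was at 157, 129, 154, 107 and 122 CPM in libraries 1 to 5, whose nuclear RNA levels were 7.99, 7.76, 8.18, 6.67 and 7.56, and in iTBS at 118, 176, 138, 159 and 129.7 CPM with levels of 7.14, 8.06, 7.90, 8.07 and 7.30. In sham and iTBS the library with the lowest nuclear RNA level had the lowest Kcnt1. In cTBS, at 104, 129, 113, 105 and 120.0 CPM with levels of 6.55, 7.24, 7.08, 6.26 and 7.37, cTBS 4 had the lowest level and cTBS 1 the lowest Kcnt1.

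The 22 members that fell came from 11 of the 14 subfamilies and included the most abundant ones. Kcnab2 fell by 0.23 log2 units per unit (SE 0.05, adjusted p = 0.000775). Kcnq5, of the M-current subfamily, had a slope of −0.20 ± 0.04, Kcnip3 of −0.26 ± 0.05 and Kcnj12 of −0.29 ± 0.07. Kcna1 and Kcnj4 were among them, with slopes of −0.17 ± 0.05 and −0.17 ± 0.06. None of the BK or SK members passed. Across the 67 members the slope had a Spearman correlation of 0.042 with the genomic span of the gene and 0.0065 with the exonic share of that span, given as a description of genes that share the same libraries. Without sham 4 the slope passed for 13 members, all among the 25, of which 3 rose and 10 fell.

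Slopes on the striatal marker level passed for mostly different members. They passed adjustment for 14 of the 67 members (20.9%), against 1.85% of all tested genes. Of these, 7 rose (10.4%, against 1.27% of all) and 7 fell (10.4%, against 0.583% of all). Here too the background is not matched to the members in level. Kcnc4 alone passed for both levels. None of the 67 members is on the marker list itself.

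Kcnab1, a Kv beta subunit that speeds inactivation of Kv1 channels, followed the striatal level most closely. It was at 125, 141, 72.2, 96.3 and 84.3 CPM in sham 1 to 5, at 104, 149, 97.0, 86.1 and 114 CPM in iTBS 1 to 5 and at 155, 138, 96.0, 135 and 138 CPM in cTBS 1 to 5. The striatal levels of the same libraries were 5.60, 5.86, 3.91, 4.36 and 4.50 in sham, 4.98, 6.16, 4.86, 4.62 and 5.36 in iTBS and 6.14, 6.07, 4.61, 5.60 and 5.96 in cTBS. The highest Kcnab1 library of each group was the library with the highest striatal level, sham 2, iTBS 2 and cTBS 1. Its slope was 0.45 ± 0.04 (adjusted p = 1.36e-06).

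The other members that rose were Kcna5 (0.88 ± 0.14), Kcna4, the A-type Kv1 subunit (0.34 ± 0.05), the SK gene Kcnn3 (0.33 ± 0.06), Kcnj2 (0.28 ± 0.06), Kcnd2 (0.20 ± 0.03) and Kcnk2 (0.20 ± 0.04). They thus included 2 Kv1 alpha subunits, a Kv1-modifying beta subunit and a Kv4 gene. Kcna5 was at 4.68, 6.46, 2.08, 3.26 and 4.06 CPM in sham, 3.07, 7.61, 1.45, 1.72 and 4.60 CPM in iTBS and 6.77, 10.2, 3.84, 5.82 and 7.11 CPM in cTBS.

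Those that fell included Kcnk12 (−0.71 ± 0.13), the silent subunit Kcns1 (−0.33 ± 0.06), the mechano-gated leak channel Kcnk4 (−0.33 ± 0.06), Kcnab3 (−0.25 ± 0.05), the Kv3 gene Kcnc4 (−0.24 ± 0.06), and the G protein-gated rectifier Kcnj9 (−0.20 ± 0.05). Kcnk4 was at 18.7, 11.8, 21.5, 19.3 and 18.5 CPM in sham, 18.2, 14.5, 19.9, 21.4 and 17.4 CPM in iTBS and 12.8, 13.9, 19.8, 16.2 and 14.3 CPM in cTBS. The lowest library of each group, sham 2, iTBS 2 and cTBS 1, was again the one with the highest striatal level. Of the exonic bases of Kcnk4, 13.2% are shared with another annotated gene.

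Fewer members passed without single libraries: 9 without sham 2, 9 without cTBS 1, 7 without iTBS 2 and 7 without cTBS 3. Without sham 2, sham 5 and cTBS 4 together, the libraries highest in choroid plexus transcripts, 4 passed. With the nuclear RNA level added to the model, 20 passed, including all 14.

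**Figure D4:**
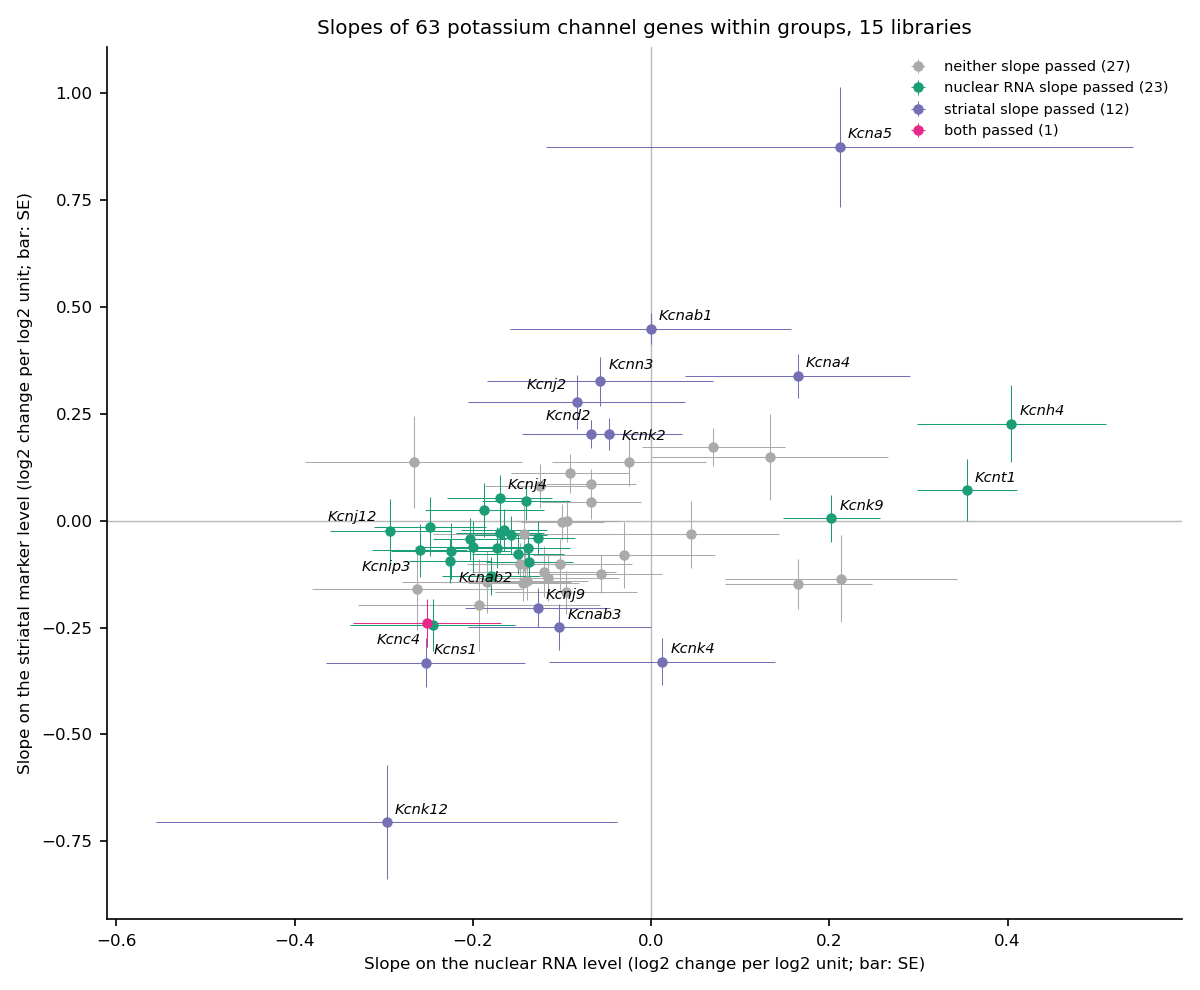
Slope of 63 of the 67 potassium channel genes on the nuclear RNA level (horizontal) and on the striatal marker level (vertical), in log2 change per log2 unit within groups, with SE bars. Colours show which slope passed an adjusted p of 0.05. Most genes lie left of 0, with Kcnh4, Kcnt1 and Kcnk9 on the right, while Kcna5 and Kcnk12 mark the ends of the vertical range.

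**Figure D5:**
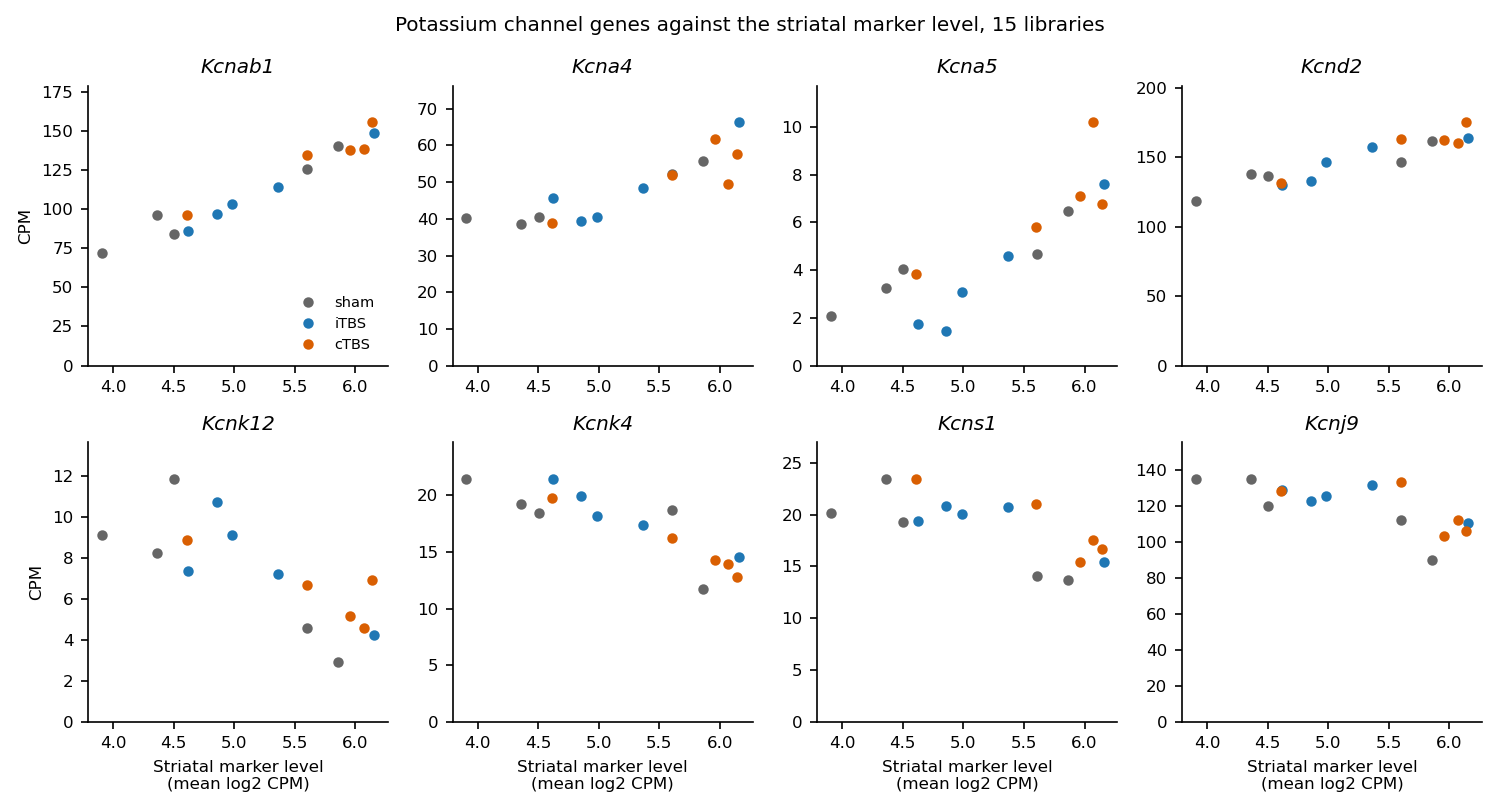
Level in CPM of 8 potassium channel genes against the striatal marker level (mean log2 CPM of 15 markers) in the 15 libraries, coloured by group. Kcnab1, Kcna4, Kcna5 and Kcnd2 are higher in libraries with a higher striatal level, and Kcnk12, Kcnk4, Kcns1 and Kcnj9 are lower there.

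Some members named in the group comparisons also had such slopes. The striatal list had a median of 0.66 log2 units in cTBS against sham, with 5 of its 15 genes higher at an unadjusted p under 0.05 (6.80% of all tested genes), and 0.25 in iTBS against sham, with none. Kcnk2 and Kcnj2 rose along this level, and with both levels in the model Kcnk2 had 0.044 ± 0.07 log2 units in cTBS against sham. Kcnj2 had 0.40 ± 0.09 log2 units in iTBS against sham with both levels in the model (unadjusted p = 0.000245, adjusted p = 0.513, and 0.434 to 1.0 over 28 alternatives). In that edgeR fit 14 members had higher and 2 lower means at an unadjusted p under 0.05, with 1384 of 22998 tested genes past it. Both lists differed between cTBS and sham, so there these models cannot tell library composition from stimulation. The causes were not tested.

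The sample descriptions number the libraries, and the slope of each member on that number was fitted as well. The edgeR test called 0 members and 0 of all tested genes (0.00%), with 11 members (16.4%) and 7.44% of all tested genes at an unadjusted p under 0.05. Members with small p-values were Kcnj6 (0.022 ± 0.0056 log2 units per number), Kcnj2 (−0.036 ± 0.010), Kcnh5 (0.024 ± 0.0074) and Kcnh7 (0.019 ± 0.0064). What the number stands for is not given in the labels.

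Of 52 genes listed as partners of potassium channels or related cation channels, 51 were tested and edgeR called 0 in any of the 3 comparisons. In iTBS against sham none had an unadjusted p under 0.05, in cTBS against sham 6 were higher and 1 lower, and in iTBS against cTBS 3 were higher and 4 lower. Of all tested genes, 1.93% were past that p in iTBS against sham. In cTBS against sham 6.80% were higher and 17.6% lower, and in iTBS against cTBS 20.0% higher and 10.6% lower. The list's medians were 0.0092, 0.074 and −0.064 log2 units. The smallest p-values in iTBS against sham were those of Cntnap1, a paranodal junction protein of myelinated axons (0.11 ± 0.06 log2 units), Abcc9, the sulfonylurea receptor subunit SUR2 (0.28 ± 0.14), and the pacemaker channel Hcn4 (−0.42 ± 0.21). In cTBS against sham they were those of the BK gamma subunit Lrrc26 (−0.84 ± 0.29), the Kv2-binding protein Vapa (0.22 ± 0.08) and Gnb5 (0.19 ± 0.07), which acts with RGS proteins on G protein-gated channels. In iTBS against cTBS they were those of Ywhaq (−0.29 ± 0.08), Abcc9 (0.46 ± 0.13) and Lrrc26 (0.87 ± 0.29).

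On the nuclear RNA level, 4 of the 51 partner genes rose and 24 fell, while 28.6% of all tested genes rose and 16.4% fell. On the striatal level 2 rose, Actn2 (0.83 ± 0.05), an actinin that binds Kv1 and SK channels, and Cntnap2 (0.18 ± 0.04), the Kv1 partner of the axon, and Rgs6 fell (−0.18 ± 0.04). Of all tested genes, 1.27% rose and 0.583% fell on that level.

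Just inside the count limit were Kcnh6 with 1540 counts, Kcng2 with 1636 and Kcnmb4 with 1772, and just outside were Kcnu1 with 1242, Kcnj8 with 1002 and Kcnj14 with 811. Of the 25 genes with a Kcn symbol that were not members, 11 were tested and edgeR called none in any of the 3 comparisons. The exons of Kcna6, Kcnj3 and Kcnmb4 overlap antisense genes over 39.6%, 31.1% and, for 2 antisense genes, 10.7% and 20.9% of their length, so their counts are uncertain where strand was not used. The same holds for 12.2% of the Kcnk2 exons and for 3.80% and 4.33% of the Kcnn2 exons.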

How the data were processed

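Total RNA was depleted of ribosomal RNA and made into stranded libraries, 1 per animal, per the labels' protocols. The raw counts per gene are those the authors deposited, and the variance-stabilized table on a log2 scale was made by the authors too. The submitters' processing notes name fastp, STAR, DESeq2 and GRCm39 (mm39). Which step each served, its version, how reads were assigned to genes and whether strand was used: not given in the sources used here.

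These counts were tested with edgeR 4.0.16 (R 4.3.3): TMM scaling, filterByExpr by group, and a quasi-likelihood F test over all 15 libraries, with Benjamini-Hochberg adjustment over the 22998 genes kept, which held 99.9% of counts. The threshold was an adjusted p under 0.05, and standard errors are the fold change divided by the square root of F. All p-values measure the spread between these samples. The 3 comparisons share libraries, sham in both comparisons with sham and cTBS in both with cTBS. Slopes come from the same test with a covariate beside the groups: the mean log2 CPM of 12 nuclear-retained RNAs, of 15 striatal markers, or the library number. DESeq2 1.42.0, limma 3.58.1 (voom on counts, trend on the deposited log2 values), RLE scaling, other filters, the replicate number as a block and leaving out each library were alternatives. On data simulated for iTBS against sham over 22998 genes, edgeR recovered 55% of genes changed 1.5-fold and 80% of those changed 2-fold. The changed genes had a mean of at least 1 CPM. Counts were drawn independently per gene, without the variation that genes share between libraries, so these rates need not hold for the real data.

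CPM uses TMM-scaled library sizes. TPM divides counts by exonic length in the GRCm38 annotation. Symbols were matched by Ensembl ID for 52073 of 56748 genes, with 97.7% of counts. No 2 libraries were identical.

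The members and lists were chosen with earlier results of these data known. The rule for named genes took, per comparison, the 10 members with the smallest p and those whose groups did not overlap, per subfamily the member highest in sham, per slope the 5 smallest p, the 3 genes on either side of the count limit, 3 partner genes per comparison, and members with an outlying library. Other members, the promoters shown and the partner genes named for slopes were chosen after their values were seen. Some members enter every count and test but are not reported here by name or shown in the figures.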

Additional observations from a re-analysis of the deposited data

Results flagged for a closer look

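In 7 of the 201 groups of 5 libraries (67 members in 3 groups, 3.48%), 1 library lay far from the other 4, with a gap above 0.71 of the group's range. Chance alone gives about 1 in 20 such groups. The SK channel gene Kcnn3 was at 21.7 CPM in cTBS 3, against a group median of 32.8, and the A-type gene Kcnd1 at 12.2 CPM in iTBS 2, against 9.98. The silent subunit Kcnv1 was at 177 CPM in iTBS 1, against 146. The leak channel Kcnk4 was at 11.8 CPM in sham 2, against 18.7, and the silent subunit Kcns1 at 15.4 CPM in iTBS 2, against 20.0. The Kv1 gene Kcna6 was at 60.2 CPM in sham 3, against 74.4, and the glial rectifier Kcnj16 at 15.1 CPM in sham 1, against 21.4. iTBS 2 gave 2 of the 7 and no other library more than 1.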

How the results depend on the processing

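Of the values that answer a comparison, 327 stayed near their main value over the alternatives and 37 moved. In cTBS against sham, edgeR called 0 of all genes, limma-voom 5461 and DESeq2 132, and leaving out 1 library gave 0 to 5726 (5726 without sham 4, 1 without iTBS 1). Of the members, limma-voom called 10, DESeq2 1, and leaving out 1 library gave 0 to 9. The members' median came to −0.079 once the nuclear RNA level entered the model and −0.0274 to 0.1121 over the left-out libraries. In iTBS against cTBS, limma-voom called 6853 genes and DESeq2 2618, and leaving out 1 library gave 0 to 4474 (4474 without iTBS 1, 3637 without sham 4, 3380 without cTBS 5). Of the members, limma-voom called 11, DESeq2 2, and leaving out 1 library gave 0 to 5. The median was 0.099 in that model and 0.0632 with the striatal level added. For the library number, leaving out 1 library gave 0 to 5 genes. The nuclear slope held for 13 to 35 members and the striatal slope for 7 to 14 members (194 to 555 of all genes) over the left-out libraries. Chosen after seeing the data, the fit without sham 2, sham 5 and cTBS 4 gave a striatal slope for 4 members and 150 genes, and adding the nuclear RNA level gave 1152 genes. The causes of these changes were not tested.

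Whether the replicate numbers pair the samples was not settled by the correlations between libraries. Same-numbered libraries correlated at −0.564 to 0.717 in their deviations, over 0.1 in 7 of 15 pairs, and 5 of 15 libraries correlated best with their own number. With the replicate number as a block, iTBS against cTBS called 5 genes, the striatal slope passed for 1 member and 33 genes, and the Kcnj2 slope on the library number turned from −0.036 to 0.0053.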
